A study of Mus musculus with 8 samples.

Results

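The 10 genes described here are genes with which the absorptive cells of the mouse small intestine, the enterocytes, take up dietary fat and vitamin A, pack them for export and finish digestion at the cell surface. They are Apoa1, Apoa4, Apob, Apoc3, Fabp1, Fabp2, Rbp2, Mttp, Alpi and Sis, chosen by name among the 55414 Ensembl gene identifiers of a count table. The table comes from Paneth cells, not from enterocytes: the small intestine of each C57BL/6J mouse was dissociated and its Paneth cells were sorted by FACS, with 4 mice kept on standard chow (control) and 4 on a zinc depleted diet (zinc deficient), both for 7 weeks, and each mouse gave 1 library of mRNA. The study's description of its workflow places a purification of crypts before the sort. All mice share the C57BL/6J background, no allele or other agent is named for either group, and the labels give neither age nor sex. The study states that its data sets hold animals of both sexes.

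Enterocytes line the villi, whereas Paneth cells are secretory cells at the base of the crypts that release antimicrobial peptides. In an enterocyte, fatty acids and retinol are carried through the cytosol by small lipid-binding proteins, triglyceride is rebuilt at the endoplasmic reticulum, and the microsomal triglyceride transfer protein loads it on apolipoprotein B to form chylomicrons, to which other apolipoproteins attach. Digestive enzymes such as sucrase-isomaltase and intestinal alkaline phosphatase sit on the brush border, the apical surface of the same cells.

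Total counts ranged from 8557690 to 12648005 per mouse, with a median of 10769900. Levels are given as counts per 1000000 counts of the library (CPM). A gene without a count could still have a level of up to 3 counts, which is 0.237 to 0.351 CPM depending on the library. The label of the cells held: 10 Paneth cell markers, led by Defa24, Lyz1 and Defa30, made up 46.3% to 60.9% of each library. The scaling factors of the libraries (TMM, which corrects for a few genes taking many counts) ran from 0.719 in zinc deficient replicate 2 to 1.57 in control replicate 1, so that CPM alone overstates most genes in the latter. For 6 of the 10 enterocyte genes, though not for Apob, Apoc3, Fabp1 and Mttp, control replicate 3 and zinc deficient replicate 3 were the 2 highest mice, and values without these 2 mice are given where they matter.

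The 10 genes together took a small share of every library. Their summed level was 52.6, 68.5, 166 and 81.1 CPM in control replicates 1 to 4 and 77.1, 28.9, 174 and 40.01 CPM in zinc deficient replicates 1 to 4. The highest of these sums is 0.0174% of the counts and the lowest is 0.00289%. The mean was 92.1 ± 50.7 CPM (SD, n = 4) for controls and 80.1 ± 66.2 CPM (SD, n = 4) for zinc deficient mice. The highest sum of each diet came from replicate 3, and the diets overlapped. In a sorted bulk sample, fewer cells of a type and less RNA per cell cannot be told apart.

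**Figure D1:**
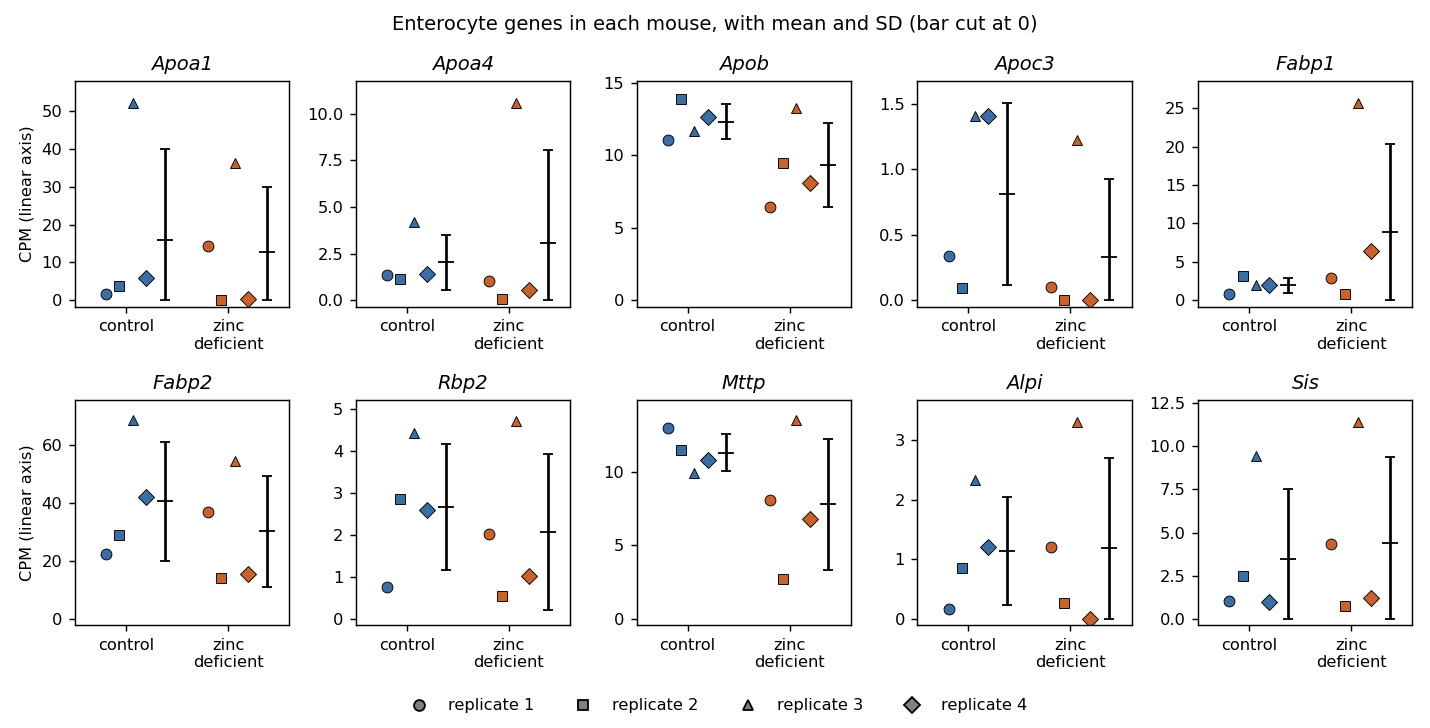
Level of each of the 10 genes in each mouse in CPM on linear axes, by diet, with 1 marker shape per replicate number and the mean with its SD (n = 4) beside the points. Replicate 3 (triangles) is the highest mouse of its diet for Apoa1, Apoa4, Fabp2, Rbp2, Alpi and Sis, whereas the mice lie closer together for Apob and Mttp.

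Diets were compared over all genes with edgeR's quasi-likelihood test and Benjamini-Hochberg adjustment. Of the 10 genes, 9 had enough counts to be tested and Apoc3 did not. None of the 9 was called at an adjusted p of 0.05, where 0.403% of the 10911 genes tested were called (16 with a higher level after the zinc depleted diet and 28 with a lower one). At an unadjusted p under 0.05 the count was also 0 of 9, against 10.5% of all genes tested. DESeq2 called none of the 10 genes, but it gave no adjusted p for Apoa4. By CPM, values of the diets did not overlap for 6.83% of all genes tested and overlapped for each of the 10 genes described here. With 4 mice a diet, the intervals of these genes were wide, and a missed threshold does not show equal levels.

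Apob and Mttp build the chylomicron. Apob codes for the apolipoprotein that forms its backbone, and Mttp codes for the large subunit of the transfer protein that loads lipid on it. Apob (ENSMUSG00000020609; chromosome 12, 8027648 to 8066835 on GRCm39, plus strand, 29 exons in the canonical transcript) had 11.1, 13.9, 11.7 and 12.6 CPM in control replicates 1 to 4. Levels in zinc deficient replicates 1 to 4 were 6.45, 9.44, 13.3 and 8.06 CPM. Apob was the steadiest of the 10 genes, with counts between 64 and 152 in every mouse and a highest mouse 2.15 times the lowest. By CPM, 3 of the 4 zinc deficient mice lay below every control mouse, but with TMM library sizes the control mice ran from 7.06 to 13.3 CPM and the zinc deficient mice from 6.90 to 13.1 CPM. The log2 fold change, zinc deficient against control, was -0.10 (standard error 0.24, 95% interval -0.59 to 0.40, adjusted p = 0.931).

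Mttp (ENSMUSG00000028158; chromosome 3, 137795612 to 137850729, minus strand, 18 exons) had 12.9, 11.5, 9.93 and 10.8 CPM in control replicates 1 to 4. Levels in zinc deficient replicates 1 to 4 were 8.06, 2.72, 13.5 and 6.80 CPM. Here too 3 zinc deficient mice lay below all control mice and replicate 3 above them, and with TMM library sizes the ranges were 8.24 to 11.4 CPM and 3.78 to 12.3 CPM. For Mttp the log2 fold change was -0.27 (standard error 0.26, 95% interval -0.82 to 0.28, adjusted p = 0.780). It was -0.54 with library sizes alone (adjusted p = 0.416), a scaling under which the median of all genes moved to -0.37. The gene record of Mttp overlaps that of Trmt10a on the opposite strand, which had 228 counts over the 8 mice, and the strand setting of the counting is not given in the sources used here.

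Apoa1, Apoc3 and Apoa4 code for apolipoproteins on the surface of chylomicrons and HDL. Apoa1 and Apoa4 activate the cholesterol-esterifying enzyme LCAT, and Apoc3 slows the breakdown of triglyceride-rich particles. The genes lie next to each other within 14880 bp of chromosome 9 (46139878 to 46154757 on GRCm39), Apoa1 and Apoa4 on the plus strand and Apoc3 between them on the minus strand. Apoa1 (ENSMUSG00000032083) had 1.69, 3.71, 52.0 and 5.81 CPM in control replicates 1 to 4. Levels in zinc deficient replicates 1 to 4 were 14.2, 0.181, 36.4 and 0.395 CPM. These levels rest on 445 counts in control replicate 3 (exact 95% binomial interval 47.3 to 57.1 CPM) and on 2 counts in zinc deficient replicate 2 (0.0220 to 0.655 CPM), and such intervals cover counting error only. Each diet held mice with high and mice with low levels. The log2 fold change of Apoa1 was -0.34 (standard error 1.62, 95% interval -4.27 to 3.59, adjusted p = 0.967), and it was 1.93 without control replicate 3 and -1.58 without zinc deficient replicate 3.

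Apoa4 (ENSMUSG00000032080) had 1.35, 1.14, 4.21 and 1.40 CPM in control replicates 1 to 4. Levels in zinc deficient replicates 1 to 4 were 1.01, 0.0907, 10.6 and 0.553 CPM. Zinc deficient replicate 3 held 121 of the 217 counts of Apoa4. For Apoa4 the log2 fold change was 0.69 (standard error 1.16, 95% interval -2.05 to 3.42, adjusted p = 0.902), and -1.54 without that mouse. Counts of Apoa1 were 14.1 times those of Apoa4 in zinc deficient replicate 1 and 12.4 times in control replicate 3. In zinc deficient replicate 3, which had the most counts of Apoa4, the ratio was 3.45, and in control replicate 1 it was 1.25. Both neighbours were thus highest in the replicate 3 mice, but not in a fixed proportion.

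Apoc3 (ENSMUSG00000032081) was the lowest of the 10, with 46 counts over the 8 mice. It had 0.338, 0.0951, 1.40 and 1.40 CPM in control replicates 1 to 4. In zinc deficient replicate 1 it had 0.101 CPM and in replicate 3 it had 1.22 CPM, and no count was present in zinc deficient replicates 2 and 4, which allows up to 0.272 and 0.237 CPM. Control replicates 3 and 4 and zinc deficient replicate 3 held 12, 14 and 14 of these counts.

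Promoters of the 10 genes were searched for short words bound by the regulators of enterocyte genes, on both strands, from 250 bases before to 50 bases after the start of the canonical transcript (GENCODE M39 on GRCm39). The words were CAAAGTCCA and CAAAGGTCA for HNF4, CCATAAA for CDX, and a longer word each for HNF1 and PPAR, of which the PPAR word can overlap CAAAGGTCA. An HNF4 word was present in Apoc3, Rbp2 and Alpi, 3 of the 10 genes, and in 0.901% of 21757 promoters of protein-coding genes. The CDX word was present in Fabp1 alone among the 10, at 2 places, and in 2.58% of all promoters. Neither the HNF1 word (0.404% of all promoters) nor the PPAR word (0.611%) was present in any of the 10. A match describes these letters only and shows no binding. Only these exact words were searched, so a window without a match is not shown to lack sites for these regulators. The windows with a match are printed 5′ to 3′ on the strand of the gene, with the matched letters in capitals. In Apoc3 and Rbp2 the word lies on the other strand and reads TGACCTTTG.
Apoc3 (chr9:46146509-46146808, minus strand): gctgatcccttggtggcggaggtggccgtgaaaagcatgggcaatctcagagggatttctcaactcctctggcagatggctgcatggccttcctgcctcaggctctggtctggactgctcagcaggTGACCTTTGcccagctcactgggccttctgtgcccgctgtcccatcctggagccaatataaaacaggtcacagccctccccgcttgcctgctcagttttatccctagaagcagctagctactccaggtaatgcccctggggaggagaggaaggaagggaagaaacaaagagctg
Rbp2 (chr9:98372326-98372625, plus strand): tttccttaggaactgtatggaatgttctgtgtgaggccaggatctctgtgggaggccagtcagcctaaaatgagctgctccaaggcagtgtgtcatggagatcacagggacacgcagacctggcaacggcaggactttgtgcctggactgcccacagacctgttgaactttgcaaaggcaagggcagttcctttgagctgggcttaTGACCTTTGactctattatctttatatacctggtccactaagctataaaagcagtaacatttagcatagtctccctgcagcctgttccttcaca
Alpi (chr1:87029279-87029578, minus strand): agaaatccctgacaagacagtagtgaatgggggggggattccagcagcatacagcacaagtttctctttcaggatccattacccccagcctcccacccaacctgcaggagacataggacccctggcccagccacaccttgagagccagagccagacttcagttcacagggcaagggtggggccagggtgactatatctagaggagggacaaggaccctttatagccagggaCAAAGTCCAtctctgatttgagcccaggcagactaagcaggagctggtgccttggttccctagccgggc
Fabp1 (chr6:71176559-71176858, plus strand): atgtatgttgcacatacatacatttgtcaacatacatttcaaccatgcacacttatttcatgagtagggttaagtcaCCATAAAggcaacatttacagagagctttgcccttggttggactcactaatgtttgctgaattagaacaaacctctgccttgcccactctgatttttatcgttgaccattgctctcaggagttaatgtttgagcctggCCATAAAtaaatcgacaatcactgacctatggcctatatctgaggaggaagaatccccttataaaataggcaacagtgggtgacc
The HNF4 word begins at position -124 from the start site in Apoc3, -44 in Rbp2 and -19 in Alpi, and the CDX words begin at -173 and -35 in Fabp1. Hnf4a, which codes for an HNF4 factor, had 122 to 284 CPM in the control mice and 93.0 to 159 CPM in the zinc deficient mice, a level present in every library, and its log2 fold change was -0.19 (standard error 0.15, adjusted p = 0.726). The 3 genes with an HNF4 word had the lowest mean CPM of the 10, with means of 0.570 CPM for Apoc3, 2.37 CPM for Rbp2 and 1.17 CPM for Alpi over the 8 mice. CPM does not correct for transcript length, and per length (TPM, described below) Rbp2 stood at place 4 of the 10, with 2.42 TPM.

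Fabp1, Fabp2 and Rbp2 code for small proteins of 1 family that carry lipids through the cytosol, Fabp1 and Fabp2 fatty acids and Rbp2 retinol. Fabp2 (ENSMUSG00000023057; chromosome 3, 122688721 to 122693155, plus strand) had the highest CPM of the 10 genes, with 22.5, 28.9, 68.6 and 42.2 CPM in control replicates 1 to 4. The zinc deficient replicates 1 to 4 had 36.8, 14.1, 54.4 and 15.6 CPM. Every mouse had at least 155 counts of Fabp2, and the highest mouse was 4.88 times the lowest. For Fabp2 the log2 fold change was -0.29 (standard error 0.60, 95% interval -1.73 to 1.15, adjusted p = 0.921).

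Fabp1 (ENSMUSG00000054422; chromosome 6, 71176809 to 71182016, plus strand) had 0.761, 3.14, 1.99 and 2.00 CPM in control replicates 1 to 4. The zinc deficient replicates 1 to 4 had 2.92, 0.817, 25.6 and 6.40 CPM. Fabp1 was highest in zinc deficient replicate 3, whereas control replicate 3 lay within the range of the other control mice. Zinc deficient replicates 3 and 4 lay above every control mouse, and replicates 1 and 2 lay within the control range by CPM. With TMM library sizes replicate 1 (3.12 CPM) also lay above the highest control mouse (2.701 CPM), and replicate 2 (1.14 CPM) lay within the control range. The log2 fold change of 2.33 was the largest of the 9 (standard error 1.00, 95% interval -0.08 to 4.74), with an unadjusted p of 0.0558 and an adjusted p of 0.5002 in edgeR's quasi-likelihood test. Without zinc deficient replicate 3 it was 1.15 (adjusted p = 0.446). Over all alternatives the adjusted p of Fabp1 ran from 0.205 to 0.768. Counts of Fabp1 were 0.471 and 0.411 times those of Fabp2 in zinc deficient replicates 3 and 4, and 0.0290 to 0.109 times in the other 6 mice.

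Rbp2 (ENSMUSG00000032454; chromosome 9, 98368121 to 98391834, plus strand) had 0.761, 2.85, 4.44 and 2.61 CPM in control replicates 1 to 4. In zinc deficient replicates 1 to 4 it had 2.02, 0.544, 4.71 and 1.03 CPM. Replicate 3 was the highest of its diet for Rbp2 too, by less than for Apoa1. For Rbp2 the log2 fold change was -0.22 (standard error 0.60, 95% interval -1.50 to 1.07, adjusted p = 0.939).

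Alpi and Sis code for enzymes of the brush border. Alpi is intestinal alkaline phosphatase, an enzyme that holds zinc in its active site and takes phosphate off bacterial endotoxin, and Sis is sucrase-isomaltase, which splits sucrose and does not depend on zinc. Alpi (ENSMUSG00000079440; chromosome 1, 87025724 to 87029328, minus strand) had 0.169, 0.856, 2.34 and 1.20 CPM in control replicates 1 to 4. In zinc deficient replicates 1 to 3 it had 1.21, 0.272 and 3.31 CPM, and replicate 4 had no count, which allows up to 0.237 CPM. The log2 fold change of Alpi was 0.20 (standard error 0.95, 95% interval -1.89 to 2.28, adjusted p = 0.967). Alpi belongs to a family of similar genes, and how the counting treated reads that match several genes is not given in the sources used here, so its level is uncertain to that extent.

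Sis (ENSMUSG00000027790; chromosome 3, 72795890 to 72875196, minus strand, 48 exons) had 1.01, 2.47, 9.47 and 1.00 CPM in control replicates 1 to 4. In zinc deficient replicates 1 to 4 it had 4.33, 0.726, 11.4 and 1.19 CPM. As for Apoa1 and Alpi, the 3 highest mice were control replicate 3 and zinc deficient replicates 3 and 1, an order that held for 3 of the 10 genes and for 0.551% of genes with at least 40 counts (1.38% with TMM library sizes). For Alpi it rests on a near tie, since zinc deficient replicate 1 (1.21 CPM) and control replicate 4 (1.20 CPM) both had 12 counts. The log2 fold change of Sis was 0.44 (standard error 1.10, 95% interval -2.20 to 3.08, adjusted p = 0.936), and -0.49 without zinc deficient replicate 3.

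**Figure D2:**
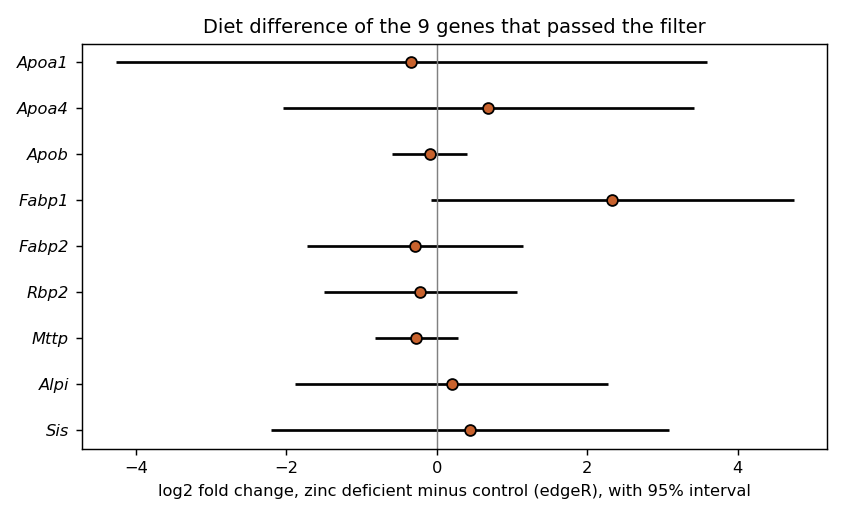
Log2 fold change of the 9 tested genes, zinc deficient minus control, from edgeR on the horizontal axis, with points for the estimate and lines for its 95% interval. All 9 intervals cross 0, those of Apob and Mttp are the narrowest, and that of Fabp1 (-0.08 to 4.74) lies mostly above 0.

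To compare genes with one another, counts were divided by the length of the canonical transcript and scaled to 1000000 per mouse (TPM). On this scale Fabp2 had 26.1 ± 13.8 TPM (SD, n = 8), followed by Fabp1 with 6.95 ± 10.8, Apoa1 with 6.82 ± 9.19 and Rbp2 with 2.42 ± 1.64 TPM. Mttp had 1.74 ± 0.728, Apoa4 1.01 ± 1.39, Apob 0.555 ± 0.150, Sis 0.473 ± 0.505, Alpi 0.356 ± 0.353 and Apoc3 0.166 ± 0.186 TPM (SD, n = 8). Apob, whose mean CPM was exceeded by those of Fabp2 and Apoa1 alone, thus lay near the low end per length, since its transcript has 13934 bases against 965 for Fabp2. Neighbours in this order were compared within mice on log2(TPM + 1) by exact two-sided permutation tests of all sign flips, with adjustment over the 9 pairs. Since the order was set by the same values and 1 pair at the smallest p that 8 mice allow could not pass the adjustment alone, these comparisons describe the spread and decide no order. Fabp2 lay above Fabp1 in 8 of 8 mice, by 2.28 ± 1.29 (SD, n = 8; exact p = 0.00781, the smallest possible, adjusted p = 0.0703). Mttp lay above Apoa4 in 7 of 8 mice, by 0.60 ± 0.60 (SD, n = 8; exact p = 0.0391, adjusted p = 0.176). For the other 7 pairs the mean difference was smaller than its SD. The place of Fabp1 rested on zinc deficient replicate 3, with 33.2 TPM. Without that mouse the means were 3.21 TPM for Fabp1, 5.24 TPM for Apoa1 and 0.548 TPM for Apoa4, and without control replicate 3 the mean of Apoa1 was 4.33 TPM. In the control mice Fabp1, with 2.52 TPM, lay below Apoa1 (7.42 TPM) and Rbp2 (2.72 TPM). With summed exon lengths in place of canonical transcripts Apoa1 (6.84 TPM) and Fabp1 (6.72 TPM) changed places, as did Apoa4 (1.17 TPM) and Mttp (1.13 TPM).

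**Figure D3:**
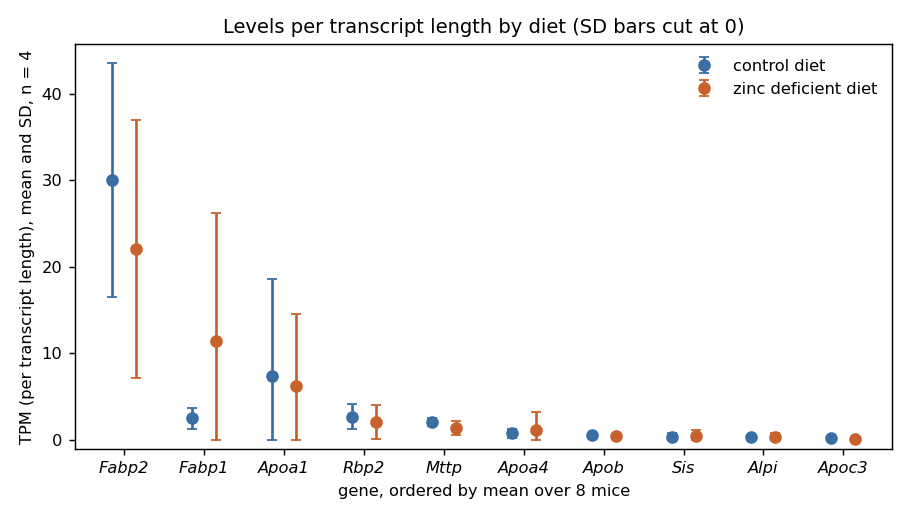
Mean level per transcript length (TPM, linear axis) of each gene by diet, ordered by the mean over 8 mice, with SD bars (n = 4) that are cut at 0. Fabp2 leads in both diets with 30.1 and 22.1 TPM, and the bars of the diets overlap for every gene.

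The same mice were highest for most of the 10 genes, a pattern noticed in these values and given as a description. Control replicate 3 and zinc deficient replicate 3 were the 2 highest mice for 6 of the 10 genes (Apoa1, Apoa4, Fabp2, Rbp2, Alpi and Sis), by CPM and with TMM library sizes alike. Among the 11799 genes with at least 40 counts over the 8 mice, 1.51% had these 2 mice on top by CPM and 3.28% with TMM library sizes. Zinc deficient replicate 2 was the lowest mouse for 6 of the 9 tested genes, but it was also the lowest for 48.7% of all genes tested. Within diets, the SD of log2(CPM + 1) had a median of 0.81 over the 9 tested genes and of 0.39 over the 9569 genes with a mean of 1 to 50 CPM. In 7 of the 9 it lay above 0.63, the 95th percentile of those genes, and the exceptions were Apob (0.29) and Mttp (0.59). Without the replicate 3 mice the range of Apoa1 over the remaining 6 mice was 0.181 to 14.2 CPM, that of Sis was 0.726 to 4.33 CPM and that of Apoa4 was 0.0907 to 1.40 CPM. The number of genes called between diets over the whole table was then 23, and 0 of the 8 tested genes of the 10 were among them.

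**Figure D4:**
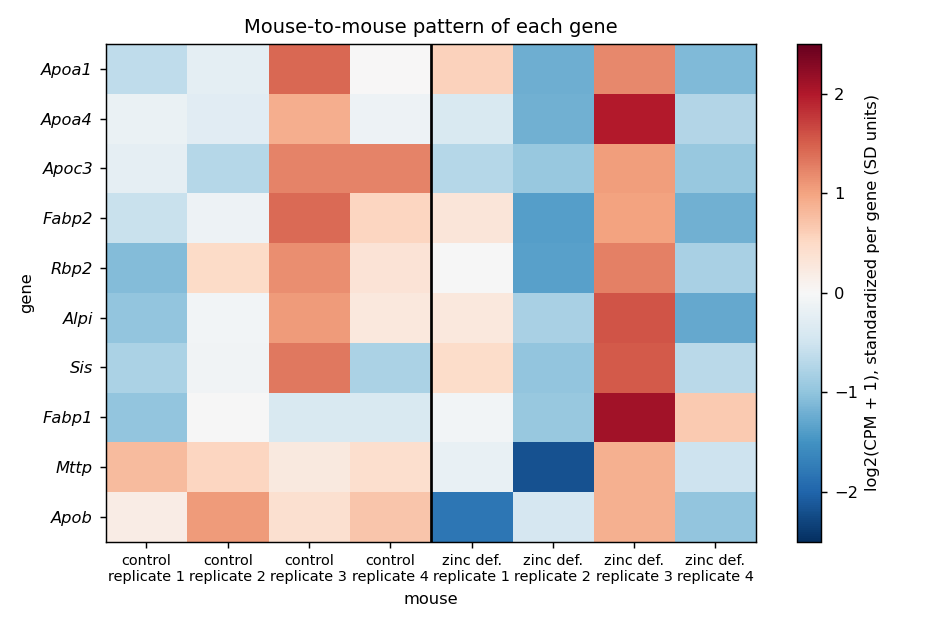
Level of each gene in each mouse as log2(CPM + 1), standardized per gene to SD units over the 8 mice (colour scale, red above and blue below the mean of the gene), with the control mice left of the line. The columns of control replicate 3 and zinc deficient replicate 3 are red for Apoa1, Apoa4, Fabp2, Rbp2, Alpi and Sis, whereas Fabp1 is highest in zinc deficient replicates 3 and 4.

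Other enterocyte genes were read from lists chosen by function. Of 23 genes of fat uptake, triglyceride synthesis and chylomicron assembly, 20 were tested and 0 were called in either direction, with a median log2 fold change of -0.02 against -0.0052 over all genes tested. The highest were P4hb, the partner of Mttp in the transfer protein and a chaperone of all secretory cells, with 2429 ± 282 CPM in the control and 2133 ± 427 CPM in the zinc deficient mice (SD, n = 4 each), followed by the cargo receptors Surf4 (331 CPM over the 8 mice) and Mia2 (84.3 CPM). P4hb was thus present at a level far above that of Mttp, its partner. In the sterol list 0 of 11 tested genes were called (median log2 fold change -0.01), led by Srebf2 and Hmgcs1 with means of 82.2 and 73.1 CPM. In the retinoid list 0 of 7 tested genes were called (median -0.34). Its highest gene Rbp4, the retinol carrier of plasma, had 9.21 ± 2.43 CPM in the control and 14.6 ± 3.81 CPM in the zinc deficient mice (SD, n = 4). The diets did not overlap by CPM. With TMM library sizes they did, as control replicate 3 (10.6 CPM, factor 0.928) then lay above zinc deficient replicate 3 (12.2 CPM, factor 1.095). The log2 fold change of Rbp4 was 1.04 (standard error 0.24) and missed the threshold (edgeR adjusted p = 0.0757). Dhrs3, which reduces retinal to retinol, had 4.90 ± 0.758 and 2.63 ± 0.856 CPM (adjusted p = 0.466), and Isx, a repressor of retinoid uptake genes, had 5.34 ± 2.62 and 1.67 ± 1.55 CPM (log2 fold change -1.42, standard error 0.62, adjusted p = 0.451).

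Brush border hydrolases were split by their need for zinc. Of 9 zinc enzymes, 7 were tested and 0 were called (median log2 fold change -0.09). Anpep, an aminopeptidase, led with 259 ± 67.6 CPM in the control and 192 ± 43.5 CPM in the zinc deficient mice (SD, n = 4). Of 6 hydrolases that do not hold zinc, 3 were tested and 0 were called (median -0.44), with Mgam, which splits starch, at 54.8 ± 15.2 and 38.3 ± 5.09 CPM. The other leading genes were Mep1b (10.6 CPM over the 8 mice) and Naaladl1 (5.71 CPM) among the zinc enzymes and Dpp4 (10.3 CPM) and Ggt1 (1.29 CPM) among the rest. Anpep and Mgam were present in every mouse at levels above those of Alpi and Sis. Of 14 nutrient transporters and bile acid carriers, 7 were tested and 0 were called (median -0.27), and the highest were the glucose transporter Slc5a1 (18.6 CPM over the 8 mice), the fructose transporter Slc2a5 (18.1 CPM) and Fabp6 (5.17 CPM). Fabp6, the bile acid carrier of the ileum and a relative of Fabp1 and Fabp2, had 1.27, 0.380, 18.3 and 3.01 CPM in control replicates 1 to 4. In zinc deficient replicates 1 to 3 it had 9.98, 0.181 and 8.20 CPM, and replicate 4 had no count. Fabp6 had the same 3 highest mice as Apoa1, in another order, and no count in zinc deficient replicate 4, where Fabp1 was above every control mouse. Among genes with at least 40 counts, the replicate 3 mice were the 2 highest by CPM for 3 of 5 hydrolases that do not hold zinc (Lct, Treh and Ggt1) and 4 of 12 transporters (Slc15a1, Slc6a19, Slc7a9 and Slc34a2), named here for this order. With TMM library sizes the same 3 hydrolases had it, and 3 of 12 transporters, without Slc6a19. By CPM the order held for 1 of 21 genes of fat uptake, triglyceride synthesis and chylomicron assembly (2 of 21 with TMM library sizes). It held for 0 of 7 retinoid genes on either scale, so that most genes of both lists did not have it. The list of fat uptake is led by P4hb, a chaperone of all secretory cells, and so does not describe enterocytes alone. The order also held for 0 of 12 enterocyte transcription factors, 0 of 12 genes of fatty acid oxidation and 0 of 11 sterol genes, and with TMM library sizes for 0, 0 and 1 of them.

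Of the enterocyte transcription factors, 12 were tested and 0 were called (median log2 fold change -0.15). Hnf4a, Elf3 and Cdx1 led, with 157, 99.2 and 80.6 CPM over the 8 mice. In the list of fatty acid oxidation and PPAR targets 0 of 11 tested genes were called (median -0.13). Acaa2 and Acadl led that list with 53.8 and 47.3 CPM, and Acadl, the long-chain acyl-CoA dehydrogenase, had a log2 fold change of 0.64 (standard error 0.16, edgeR adjusted p = 0.0971). Of 5 genes of the villus tip, 4 were tested and 0 were called (median -0.22). Egfr had 10.2 CPM, Ada had 2.58 CPM and the differentiation keratin Krt20 had 2.54 CPM over the 8 mice. Krt20 was highest in zinc deficient replicate 3 (6.45 CPM) and control replicate 3 (4.67 CPM). It was the only 1 of 4 villus tip genes with at least 40 counts that had this order. Egfr was highest in control replicate 1 (15.4 CPM) and Ada in control replicate 2 (3.52 CPM).

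Markers of other cell types were summed in each mouse to be set beside the enterocyte genes. The 8 tuft cell markers summed to 54.8 to 94.2 CPM in the control mice, with the highest sum in control replicate 3, and to 15.4, 47.6, 59.4 and 425 CPM in the zinc deficient mice, with the highest in replicate 3 and the lowest in replicate 2. For 6 of the 7 tuft cell markers with at least 40 counts, the replicate 3 mice were the 2 highest, the order that 6 of the 10 enterocyte genes showed. By CPM this order held for 1.51% of all genes with at least 40 counts (3.28% with TMM library sizes). On either scale it held for 0 of 10 Paneth cell, 0 of 9 goblet cell, 0 of 4 enteroendocrine, 0 of 8 stem and transit amplifying and 1 of 2 immune markers with such counts. None of the 6 tuft cell markers tested was called between diets (median log2 fold change 1.12). Dclk1, Trpm5 and Avil had 109, 96.6 and 88.9 CPM in zinc deficient replicate 3. The 9 goblet cell markers, led by Spink4, Agr2 and Muc2, summed to 7370 to 10512 CPM and 7239 to 12192 CPM on the control and zinc deficient diets, with 0 of 9 called (median 0.25), and the 10 enteroendocrine markers, led by Sct, Chgb and Ghrl, to 29.8 to 88.4 and 16.6 to 30.03 CPM, with 0 of 3 tested called (median -1.01) and 1 marker without a count. Ghrl, which was not tested, gave 49.0 of the 88.4 CPM of the highest enteroendocrine sum, in control replicate 4. It had at most 0.234 CPM in the other control mice and at most 3.32 CPM in the zinc deficient mice. The 8 stem and transit amplifying cell markers summed to 1365 to 2197 CPM in the control and 524 to 1100 CPM in the zinc deficient mice, without overlap. All 8 had a log2 fold change below 0 (median -0.73), and Top2a, a gene of dividing cells, fell by 1.18 on the log2 scale (standard error 0.21, edgeR adjusted p = 0.0230), the only call in these lists of other genes. Olfm4 had 1513 ± 274 and 613 ± 213 CPM (SD, n = 4, edgeR adjusted p = 0.108), and Smoc2 and Lgr5 had means of 107 and 34.8 CPM over the 8 mice. The call of Top2a was lost with library sizes alone (adjusted p = 0.115), without control replicate 2 (0.108) or 4 (0.0950), and without zinc deficient replicate 2 (0.0506) or 4 (0.0674). The 8 immune markers, led by Lyz2, Ptprc and Itgae, summed to 23.5 to 37.3 and 31.5 to 51.2 CPM, with 0 of 1 tested called and 3 markers without a count. Nearly all of this sum was Lyz2, a close copy of the Paneth cell gene Lyz1, so that its count is uncertain. Ptprc, which all white blood cells carry, had 2.79 CPM in zinc deficient replicate 3 and at most 0.351 CPM elsewhere. The 7 stromal and vessel markers, of which Vim, Pecam1 and Pdgfra were the highest, stayed at or below 0.592 CPM in sum, and 4 had no count. Of the 10 Paneth cell markers 0 were called (median 0.48). All 10 had a log2 fold change above 0. In edgeR's test 4 of the 10 had an unadjusted p under 0.05, against 10.5% of all genes tested. The part of other cell types in the order of the mice was not tested.

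**Figure D5:**
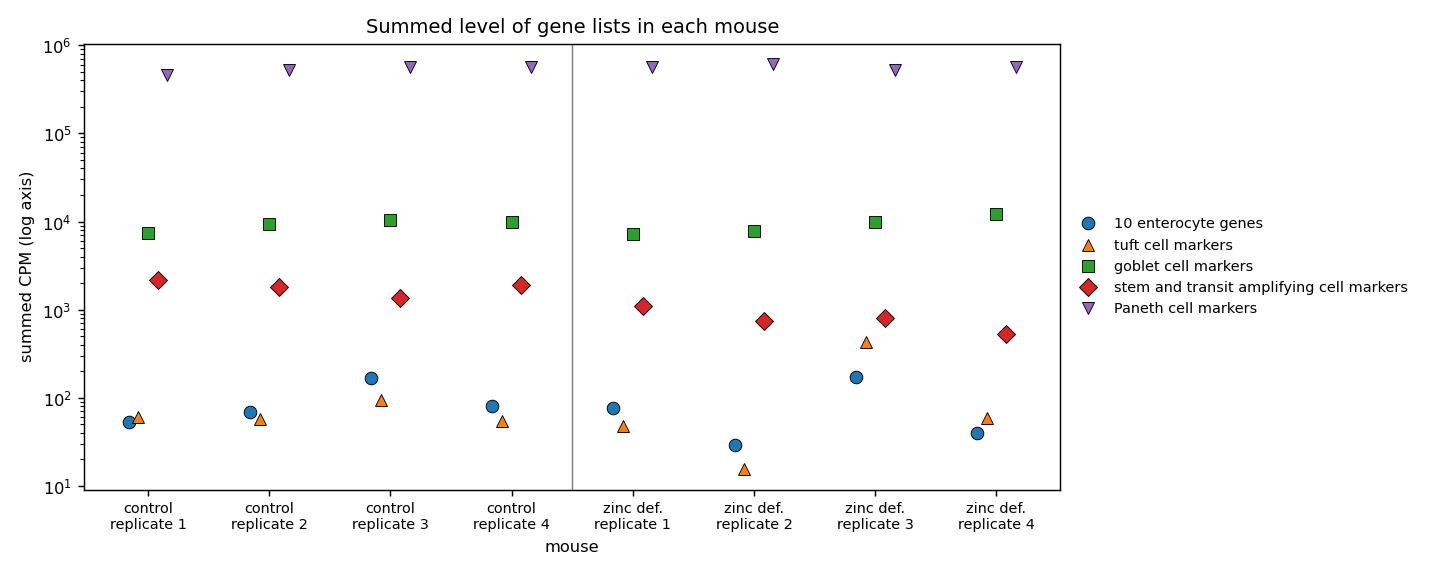
Summed CPM (log axis) of the 10 enterocyte genes and of 4 lists of cell type markers in each mouse, control mice left of the line. The enterocyte genes (circles) peak at 166 and 174 CPM in the replicate 3 mice, the tuft cell markers peak at 425 CPM in zinc deficient replicate 3, and the Paneth cell markers stay near the top of the axis in all mice.

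The genes whose level over the 8 mice was most like that of the 10 were found from the correlation of log2(CPM + 1) with the mean of their standardized values, leaving out genes whose mean was under 1 CPM. They were Trappc6a, Vta1, Cyp4f14, Rgs13 and Lct, with Pearson r of 0.954, 0.935, 0.929, 0.927 and 0.919 and Spearman rho of 0.905, 0.929, 0.881, 0.976 and 0.946 over the 8 mice. Without the 2 mice farthest from the median of that mean, r was 0.883, 0.882, 0.796, 0.937 and 0.939. As these genes were picked for their correlation, no test is given. Lct is lactase, another disaccharidase of the enterocyte brush border, and had 3.04 CPM in control replicate 3 and 2.27 CPM in zinc deficient replicate 3. Rgs13, a gene of tuft cells, had 14.5 and 63.9 CPM in these mice and 2.81 to 10.5 CPM in the others. Of these 5 genes, 1 was still among the 5 most alike with TMM library sizes and 2 with a pseudocount of 5.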

How the data were processed

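RNA-seq libraries of sorted Paneth cells came from 8 mice (C57BL/6J, 4 control and 4 zinc deficient, 7 weeks of diet). The deposited values are raw counts, 1 whole number for each gene identifier and mouse. Per the labels, processing notes name FastQC 0.12.0, STAR 2.7.0a, DESeq2 and build mm39. No source used here gives the program that counted reads, its strand setting or its treatment of reads with several matches. Each column was tied to its sample by the group name and number in its heading, and 0 columns belonged to other samples.

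Symbols and positions were taken from GENCODE M39 on GRCm39, in which 54749 of 55414 identifiers were found. The 665 others held 0.0039% to 0.00991% of a library. CPM used total counts, and TPM used canonical transcript lengths. Pairs of mice on the same diet differed by more than sampling noise (chi-square of at least 5.70 per degree of freedom). That each library is 1 animal is taken from the study's methods. The diet comparison used edgeR 4.0.16 under R 4.3.3, with TMM scaling, its expression filter, the robust quasi-likelihood test over 10911 genes and Benjamini-Hochberg adjustment at 0.05. Standard errors are the size of the log2 fold change divided by the square root of F. DESeq2 1.42.0 served as an alternative, and the edgeR step was tested on simulated data. Other steps ran in Python 3.11.15 (scipy 1.17.1, numpy 2.4.6, pandas 2.3.3, matplotlib 3.10.9).

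The 10 genes and all lists were chosen with earlier results of these data known. The text names the 10 genes, the 3 genes of highest mean CPM in each list and any called, and the 5 genes most like the 10. A few genes that this rule names are not reported here. Lct, Treh, Ggt1, Slc15a1, Slc6a19, Slc7a9 and Slc34a2 are also named for their order of mice, after their values were seen, and Trmt10a for its overlap with Mttp. Alternatives covered scaling, filter, test, robust option, pseudocount, replicate block and each mouse left out, and leaving out both replicate 3 mice was added after seeing the data.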

Additional observations from a re-analysis of the deposited data

Results flagged for a closer look

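In groups of 4 mice, a mouse was marked where its gap to the nearest other mouse, divided by the range of the group, exceeded Dixon's 95% critical value. Of 22 groups (the 10 genes and their sum in each diet), 4 had such a mouse. Chance gives about 1 in 20 groups only for normally distributed values, which was not checked for these CPM on a linear scale. Groups of genes that share mice are also not independent, so the 4 marks are a description. Among the control mice these were Apoa1 with 52.0 CPM and Apoa4 with 4.21 CPM, both in control replicate 3. Among the zinc deficient mice these were Apoa4 with 10.6 CPM and Apoc3 with 1.22 CPM, both in zinc deficient replicate 3. Each marked value was the highest of its diet.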

How the results depend on the processing

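None of the 10 genes was called between diets under any alternative run. Over the whole table, 44 genes were called, against 11 with library sizes alone, 251 with no filter on low counts, 25 without the robust option, 134 with DESeq2, 8 to 36 with single mice left out (8 without control replicate 2 or 4) and 23 without both replicate 3 mice, where the cause was not tested. With the replicate number as a block it was 53, with 0 of the 10 genes among them, and the log2 fold changes of Apoa4 (-0.13) and Alpi (-0.057) changed sign without being called. The mice were taken as unpaired, since no source ties the numbers to a shared litter or day and the deviations of same-numbered mice correlated at 0.114, 0.0925, 0.00486 and 0.0926 for replicates 1 to 4. Control replicates 1, 2 and 4 correlated best with the zinc deficient mouse of their own number and control replicate 3 did not. With single mice left out, log2 fold changes ran from -1.58 to 1.93 for Apoa1, -1.54 to 1.45 for Apoa4, -0.28 to 0.056 for Apob, -0.59 to 0.21 for Fabp2, -0.85 to 0.23 for Rbp2, -0.94 to 0.90 for Alpi and -0.49 to 1.83 for Sis. Fabp1 (1.15 to 2.69) and Mttp (-0.54 to -0.04) kept their sign. Without both replicate 3 mice Apoa1 was at 0.69 and Apoa4 at -0.76. The summed level differed by -12.0 CPM between diets (pooled SD 58.9), by -6.96 CPM with TMM library sizes, by -43.4 to 12.7 CPM with single mice left out and by -18.8 CPM without both replicate 3 mice. The levels of Apoc3 and Alpi rest on few counts.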
